A study of Mus musculus with 8 samples.

Results

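The Hedgehog pathway genes of the healthy adult mouse liver were examined in 3491 single cells, as 8 genes chosen by name: the ligands Dhh and Ihh, the receptor Ptch1, the signal transducer Smo, the transcription factors Gli1, Gli2 and Gli3, and the antagonist Hhip. All 8 were present among the 46517 genes of the count table. The study sorted liver cells of adult mice on a C57BL6 background, some of them carrying heterozygous fluorescent reporters driven by Pdgfrb, Pdgfra, Acta2, Cldn5 or Cspg4, and sequenced each cell by Smart-seq2, a full-length method that counts reads and not molecules. All mice were untreated, so the comparisons were between cell populations. Cells were pooled by class and by sex, giving 998 male and 339 female mesenchymal cells, 655 and 451 endothelial cells, 255 and 396 immune cells, and 358 and 39 epithelial cells. Neither the individual mouse nor its reporter strain was given for a cell, so the male and the female pool were the only replicates, at most 2 for a population, and also differed by sex. Some clusters, among them m10c, m13c and m17c and most hepatocyte clusters, held male cells only. The cell numbers reflected the sorts and not the abundance of a population in the liver.

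Hedgehog ligands are secreted proteins that bind Ptch1, which otherwise keeps the membrane protein Smo inactive. Released Smo acts through the Gli factors, among which Gli2 is mainly an activator, Gli3 mainly a repressor, and Gli1 an activator that is itself a target of the pathway. Ptch1 and Hhip are also targets, and Hhip, a membrane-anchored and secreted protein that binds the ligands, restrains the signal. In the adult liver the pathway is known for its activity in bile duct injury and fibrosis, with stellate cells and portal fibroblasts among the responding cells.

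The median cell held 228708 counts, with a range from 47063 to 1128421, and a median of 4161 genes. The pool medians ran from 88932 counts in the female epithelial cells to 321121 in the female mesenchymal cells, the 339 female mesenchymal cells having been sorted into 1 plate and the male ones into 9. No plate of the 22 mixed the sexes, so plate and sex cannot be told apart in the mesenchymal comparisons. On the female mesenchymal plate 65.7% of the cells with an Hhip count held a single count, against 30.6% in the male pool, and for this reason cells with at least 20 counts are given beside cells with any count. The stellate markers Reln, Lrat, Hgf, Colec11, Ecm1 and Ngfr all exceeded 10 counts per 1000000 counts (CPM) in both clusters that the study calls hepatic stellate cells (HSC, cluster m7c) and capsular stellate cells (cHSC, cluster m3c), with a summed level of 15972 CPM in HSC and 6302 CPM in cHSC. All but Reln also exceeded 10 CPM in the fibroblast clusters m4 and m1. Reln stood at 3627 CPM in HSC and 1552 CPM in cHSC, against 2.56 CPM in m4 and 3.76 CPM in m1. The cHSC also held 4 of 6 fibroblast markers above 10 CPM, with a summed level of 7460 CPM against 2735 CPM in HSC. All 4 peribiliary fibroblast markers, Thy1, Gfra2, Wif1 and Nkd2, exceeded 10 CPM in the cluster annotated as peribiliary fibroblasts (m4). Hepatocyte transcripts (Alb, Apoa1, Ttr and Cyp2e1) were read in these sorted cells too, at a summed 736 CPM in HSC, 392 CPM in cHSC and 1219 CPM in m4, and their part in the results below was not tested. The endothelial markers Pecam1, Cdh5, Kdr, Tie1 and Stab2 summed to 10.3, 36.2 and 19.7 CPM in the same clusters.

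The promoter windows of 3 members are shown as 1 each of the antagonist (Hhip), the receptor (Ptch1) and the ligands (Dhh), the genes whose levels by cluster are described most closely below. Each runs from 250 bases before to 50 bases after the start of the RefSeq transcript (GRCm38.p6), reads 5′ to 3′ on the minus strand of the chromosome, and lies at chr8:80057959-80058258 for Hhip, chr13:63565686-63565985 for Ptch1 and chr15:98898491-98898790 for Dhh.
Hhip: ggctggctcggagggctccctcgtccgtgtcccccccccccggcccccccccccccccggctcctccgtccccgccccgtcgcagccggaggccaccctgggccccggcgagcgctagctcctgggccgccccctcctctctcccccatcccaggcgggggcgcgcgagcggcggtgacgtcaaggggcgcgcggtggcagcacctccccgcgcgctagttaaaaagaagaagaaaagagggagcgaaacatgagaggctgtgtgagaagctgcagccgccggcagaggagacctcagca
Ptch1: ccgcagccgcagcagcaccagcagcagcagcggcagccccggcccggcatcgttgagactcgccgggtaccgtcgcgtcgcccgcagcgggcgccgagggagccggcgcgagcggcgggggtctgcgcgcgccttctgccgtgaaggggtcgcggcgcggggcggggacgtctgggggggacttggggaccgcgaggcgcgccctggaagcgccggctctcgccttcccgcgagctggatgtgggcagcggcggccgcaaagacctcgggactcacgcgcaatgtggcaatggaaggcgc
Dhh: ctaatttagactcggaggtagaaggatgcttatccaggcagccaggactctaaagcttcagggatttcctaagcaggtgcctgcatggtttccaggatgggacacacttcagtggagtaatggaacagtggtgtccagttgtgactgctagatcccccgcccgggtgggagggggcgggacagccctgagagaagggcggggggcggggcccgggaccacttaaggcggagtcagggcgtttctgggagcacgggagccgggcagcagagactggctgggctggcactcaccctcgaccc
The windows of Hhip and Ptch1 had a G+C content of 73.7% and 76.3%, and that of Dhh 61.7%. The consensus bound by Gli factors, GACCACCCA, and its core CCACCCA were searched on both strands, the core being part of the consensus. The consensus stood in 83 of 32851 windows of that length (0.253%) and the core in 3056 (9.30%). Neither stood in any of the 7 member windows that were matched, which says only that these letters are not within these windows. Gli1 had no matched window.

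Across the 4 cell classes, the Gli factors and the antagonist Hhip were highest in the mesenchyme and the ligand Dhh in the endothelium, while Ptch1 and Smo were spread more widely. Raw counts summed per class and pool were compared by edgeR's quasi-likelihood test, each class against the mean of the other 3, and a gene was called at a Benjamini-Hochberg adjusted p under 0.05 and an absolute log2 fold change of at least 1. In the mesenchymal class 4 of the 8 members were called higher (Hhip, Gli1, Gli2 and Gli3) and none lower, where 9.47% of the 24046 genes tested were called higher and 2.33% lower. In the endothelial class 1 member, Dhh, was called higher and 1, Gli1, lower, against 5.33% and 2.96% of all genes. In the immune class Gli1 was called higher (7.92% of all genes), and in the epithelial class it was called lower (4.05%). The classes and clusters were defined by the study on these same transcriptomes, so that part of any difference between them was built in. Where a pool had 0 counts of a gene, the fitted fold change also depended on the small count added by the model, and the levels are therefore given first.

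**Figure D1:**
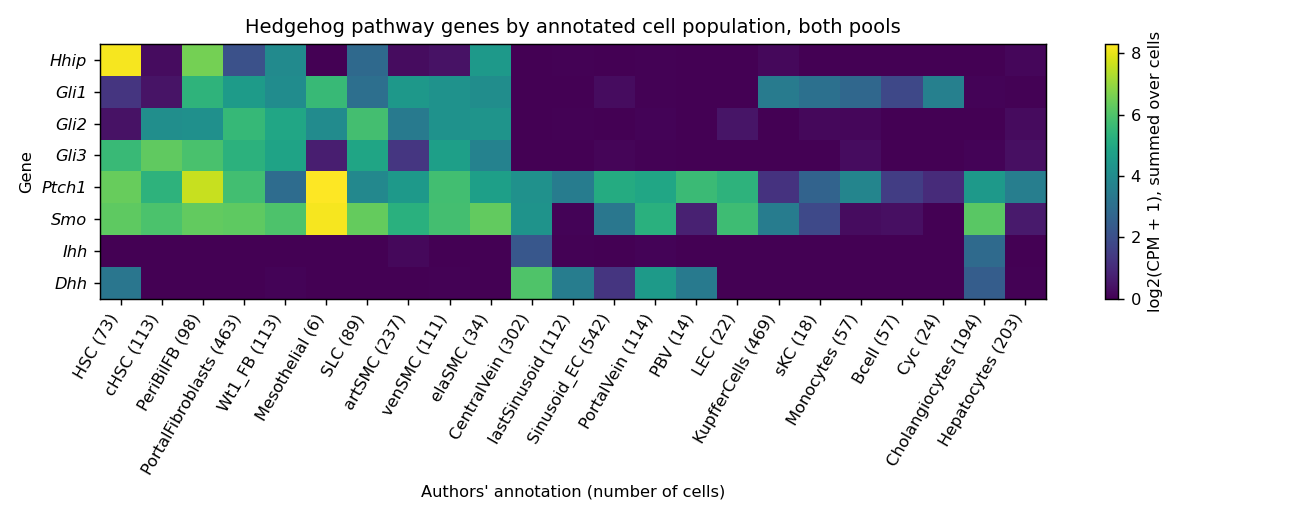
Level of each of the 8 genes in each annotated population, with male and female cells summed, as colour on a log2(CPM + 1) scale. The number of cells is in parentheses after each population, and 26 cells annotated as contaminating or mixed ("Cont") are left out. Hhip is at its highest in HSC (293 CPM) and next in peribiliary fibroblasts (93.2 CPM), and Dhh is at its highest in central vein endothelium (64.5 CPM).

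Of the ligands, Dhh was an endothelial transcript. Desert hedgehog, its product, is known from Schwann cells, Sertoli cells and endothelium. It stood at 16.5 (male) and 32.2 CPM (female) in the endothelial pools, in 32 of 655 and 56 of 451 cells. In the other classes the pools ranged from 0 to 3.01 CPM, the epithelial male pool being the highest with 276 of its 277 Dhh counts in 1 cholangiocyte. Both endothelial pools lay above every other pool. The log2 fold change was 7.10 ± 1.45 (SE), with an adjusted p of 0.0228 by edgeR's quasi-likelihood test, and the fitted value was 5.25 in the male pools and 8.76 in the female pools alone.

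Within the endothelium, Dhh was concentrated in the clusters annotated as central vein. In cluster e1 it reached 52.9 (male) and 96.8 CPM (female), with counts in 31 of 152 cells (20.4%, exact 95% binomial interval 14.3 to 27.7%) and at least 20 counts in 19. The other central vein cluster, e7, held 48.7 and 52.3 CPM, although in only 15 of 150 cells, and fell to 32.3 CPM over both pools without its highest cell. The portal vein cluster e2 held 16.3 and 23.9 CPM. The order of the levels was thus e1, e7 and e2, with the male e1 pool almost at the female e7 pool. In the study's finer community clustering, the highest Dhh level over both pools among 48 clusters was that of e9c. This endothelial cluster held only 14 cells, 5 male and 9 female. Without their highest cells e1 stood at 65.9 CPM and e2 at 11 CPM. Cluster e6, annotated lastSinusoid, was at 28.2 CPM in the male but 2.58 CPM in the female pool, and 276 of its 411 counts were in 1 male cell. The sinusoidal clusters e3, e5 and e8 did not exceed 1.94 CPM over both pools, with counts in 5 of 236, 4 of 151 and 3 of 155 cells, and the 22 lymphatic cells of e4 had no Dhh count, which allows a share of up to 13.6%. The median depth was 320683 counts in e1, 177419 in e7 and 303731 in e3, but 153017 in e5, 110837 in e8 and 164038 in e4. So the sinusoidal cells of e3 were read about as deeply as those of e1 and held the ligand in few cells. Those of e5, e8 and e4 were read less deeply, and the part of depth in their low shares was not tested.

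For e1 against the mean of the other endothelial clusters, Dhh was the 1 of 3 tested members called higher, where 1.32% of genes were called higher. Its log2 fold change was 5.40 ± 1.10 with an adjusted p of 0.0213 by edgeR's quasi-likelihood test, but this contrast weights clusters with no Dhh counts as much as the rest. With one sum per side and pool the change was 2.71 ± 0.57 and the adjusted p 0.202, so the call was not made in that fit, which also had fewer sums and called 1 gene in all. The summed pools read 52.9 CPM in e1 against 9.28 CPM in the remaining male cells, and 96.8 against 15.8 CPM in the female cells. For the portal vein cluster e2, where 1.93% of genes were called in either direction, no member was called (Dhh log2 fold change 3.19 ± 1.21, adjusted p 0.293), and with one sum per side and pool the Dhh change was −0.24 ± 0.75. The exons of Dhh overlap 546 bases of Rhebl1, a gene on the same strand, whose reads cannot be told apart there. Rhebl1 was read at 3.57 CPM in e1, far below Dhh at 72.2 CPM.

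**Figure D2:**
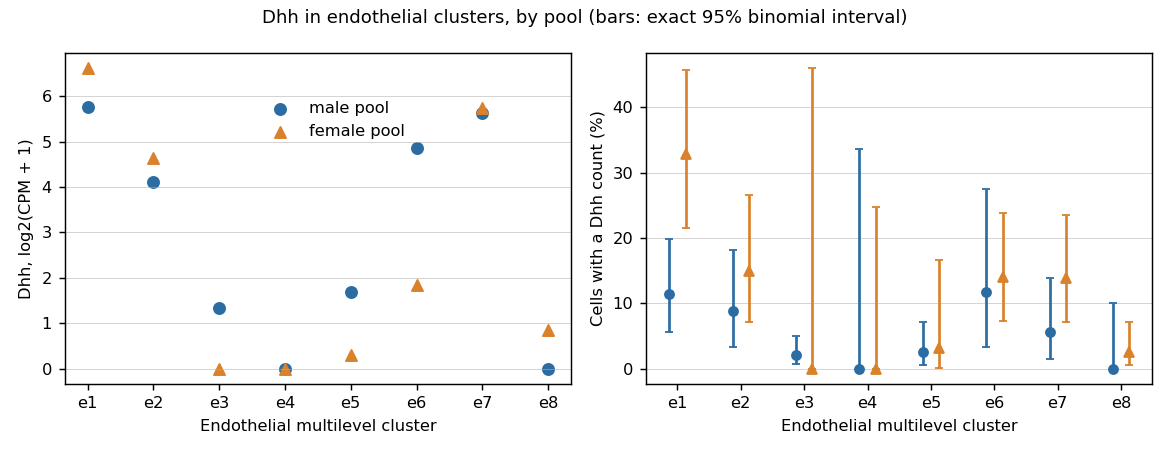
Dhh in the 8 endothelial clusters by pool, as log2(CPM + 1) of the summed counts (left) and as the percentage of cells with a Dhh count (right, with exact 95% binomial intervals, which cover counting error only). Both pools of e1 (52.9 and 96.8 CPM) and e7 (48.7 and 52.3 CPM) stand above both pools of e2 (16.3 and 23.9 CPM).

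Dhh in the mesenchyme was confined to a few cells. In HSC it reached 8.75 CPM, from 132 counts in 2 male cells, 131 of them in 1 cell, and without that cell it stood at 0.067 CPM. For HSC against the mean of the other mesenchymal clusters Dhh was called higher, where 5.95% of genes were called higher and 0.215% lower. Its log2 fold change was 7.97 with an adjusted p of 1.71e-04 by edgeR's quasi-likelihood test, a call that therefore described 1 cell. No Dhh count was found in the 113 cHSC or the 98 peribiliary fibroblasts.

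Ihh, the ligand known from cartilage and gut, was read in 11 of the 3491 cells. Of these, 5 were male cholangiocytes at 6.95 CPM over the male pool, 3 of them with at least 20 counts, and no count was found in the 37 female cholangiocytes, which allows a share of up to 8.11%. One female e1 cell held 296 of the 299 endothelial Ihh counts. The fit across all genes did not call Ihh in any class (adjusted p 0.142 for the epithelial and 0.240 for the endothelial class, edgeR's quasi-likelihood test). Shh, the third mammalian ligand, was read in 2 mesenchymal cells only.

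The receptor Ptch1 was the most widely spread member. It was read at 65.8 (male) and 32.5 CPM (female) in the mesenchymal pools, at 27.0 and 23.5 CPM in the endothelial pools, and at 11.3 and 103 CPM in the epithelial pools. The immune pools held 4.47 and 3.59 CPM. Both mesenchymal pools thus lay above both endothelial pools, the immune pools were lowest, and the epithelial pools spanned the mesenchymal and endothelial ones. In the female epithelial pool 567 of 658 counts came from 1 cholangiocyte. The mesenchymal log2 fold change of 1.56 ± 0.68 did not pass the test (adjusted p 0.224, edgeR's quasi-likelihood test), and without the low-count filter it had an adjusted p of 0.0484.

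In the endothelial cluster e1 Ptch1 was lower than in the rest. It stood at 5.6 (male) and 10.1 CPM (female) in the Dhh-bearing cluster e1, against 31.2 and 26.8 CPM in the remaining endothelial cells of the same pools. The sinusoidal clusters e3, e5 and e8 held 34.1, 48.3 and 13.1 CPM over both pools, and e6 held 10.1 CPM, so that a low level was not particular to e1. Cluster e7, which also held Dhh, was at 7.29 (male) and 55.4 CPM (female), the latter with 886 of its 909 counts in 1 cell. In the portal vein cluster e2, a further cluster with Dhh, it was 19 against 27.8 CPM in the male and 42.2 against 19.6 CPM in the female cells. In the fit for e1 the Ptch1 change of −1.51 ± 1.5 did not pass the test (adjusted p 0.970, edgeR's quasi-likelihood test).

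Among mesenchymal clusters, the highest Ptch1 levels with more than 6 cells were those of the peribiliary fibroblasts. In m4 it stood at 200 (male) and 143 CPM (female), with counts in 52 of 98 cells (53.1%, interval 42.7 to 63.2%) and at least 20 counts in 31. The other fibroblasts held 48.8 and 47.2 CPM, so that both m4 pools lay above both of the rest. Without the plate with most m4 cells the level was 115 CPM. The portal fibroblast cluster m17c, 31 male cells, held 146 CPM, and the 6 mesothelial cells of m16c held 316 CPM from 2 cells. HSC stood at 80.5 (male) and 8.39 CPM (female), the latter of 4 cells (48.6 CPM over both without its highest cell), and cHSC at 53.4 and 0.665 CPM. In both stellate clusters the female level was far below the male level. Among the fibroblast clusters, Ptch1 was low in the capsular Wt1+ clusters m11c (9.69 CPM) and m12c (3.63 CPM) and in m6c (3.66 CPM, 26 cells). The Wt1+ clusters together held 7.62 (male) and 4.93 CPM (female), against 89.1 and 62.6 CPM in the remaining fibroblasts. Both Wt1+ pools were thus lower, and how many of all genes were separated in this way was not counted. The peribiliary community cluster m4c held 4916 of the 9588 male and 479 of the 2432 female counts of the remaining fibroblasts. Without m4c, an alternative chosen after seeing the data, they stood at 56.2 (male) and 55.0 CPM (female). With m4c kept, the fitted difference of −3.22 ± 1.32 did not pass edgeR's quasi-likelihood test (adjusted p 0.323), and passed the DESeq2 Wald test (−3.40, adjusted p 0.0258). With one sum per side and pool it was −3.53 ± 0.61 (adjusted p 0.260, edgeR's quasi-likelihood test).

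Smo, which transmits the signal across the membrane, was read in all 4 classes. The mesenchymal pools held 66.0 and 68.5 CPM, the epithelial pools 47.0 and 23.3 CPM, the endothelial pools 17.6 and 8.64 CPM and the immune pools 0.515 and 11.9 CPM. Both mesenchymal pools were the highest, and the log2 fold change of 2.28 ± 0.85 had an adjusted p of 0.148 by edgeR's quasi-likelihood test. Without the low-count filter the same test gave 2.33 and an adjusted p of 0.00269, and sums per plate gave 2.78 and 0.0197. Across the 18 mesenchymal community clusters, with both pools summed, the range of Smo was narrow beside that of Hhip. Apart from m16c with 6 cells, m14c with 9 cells, and m6c, where 813 of 837 counts were in 1 cell, the clusters ran from 31.6 CPM in the venous smooth muscle cluster m8c to 99.7 CPM in m9c. HSC (76.2 CPM), cHSC (60.5 CPM) and the m4c fibroblasts (81.7 CPM) all stood within that range. The pools differed more, with HSC at 82.3 (male) and 5.03 CPM (female, 4 cells). The peribiliary cluster m4 stood at 67.7 (male) and 165 CPM (female, 9 cells), so that the female pools of both lay outside the range.

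The epithelial Smo signal was that of the cholangiocytes. Cluster p2 held 76.6 (male) and 23.9 CPM (female), with counts in 60 of 194 cells and at least 20 counts in 29, and stood at 37.0 CPM without the plate with most of its cells. The 4 hepatocyte clusters did not exceed 1.21 CPM, so that the levels of both cell types did not overlap. The hepatocytes were 201 male and 2 female cells, so that male sums of 4 clusters stood in for hepatocyte replicates and the female p2 pool had no counterpart. For p2 against the hepatocyte clusters Smo was called higher, 1 of 2 members tested, where 12.3% of genes were called higher (log2 fold change 6.20 ± 1.66, adjusted p 0.0268, edgeR's quasi-likelihood test). With the pool as a replicate block the change was 6.85 and the adjusted p 0.0855, so that call was lost. Ptch1 stood at 11.7 and 105 CPM in p2 and at 28.8 CPM in the hepatocyte cluster p4, where 216 of 380 counts were in 1 cell, and was not called (2.21 ± 1.99, adjusted p 0.523). No Gli gene exceeded 0.160 CPM in either cholangiocyte pool.

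Gli2 and Gli3 were mesenchymal. Gli2 stood at 33.7 (male) and 20.8 CPM (female) in the mesenchymal pools and at no more than 0.0869 CPM in any other pool. Its log2 fold change was 9.77 ± 1.10 (adjusted p 0.00126, edgeR's quasi-likelihood test). Gli3 stood at 38.9 and 24.3 CPM against at most 1.31 CPM, with a log2 fold change of 7.66 ± 1.41 (adjusted p 0.0102). Both genes were thus above every other pool in both mesenchymal pools.

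Within the mesenchyme these factors differed in where they stood. Gli2 was highest in the portal fibroblast clusters m17c (99.0 CPM, or 62.6 CPM without its highest cell and 224 CPM without its largest plate), m10c (64.9 CPM) and m13c (60.1 CPM), all of male cells only, and in m5c, annotated as SLC, where it was 62.2 (male) and 46.1 CPM (female). In HSC only 5 of 72 cells held a Gli2 count, none with more than 1, at 0.331 CPM. The cHSC held 16.3 CPM, with 44.4 CPM over the 31 cells of 1 plate and 0.565 CPM over the 82 cells of the others. Gli2 was thus close to absent from the HSC, where Gli3 was among the higher levels. Gli3 in HSC stood at 42.8 (male) and 128 CPM (female), the latter from 1 of 4 cells, at 86.2 and 45.1 CPM in cHSC and at 61.0 and 45.1 CPM in m4. It was lowest, among clusters of at least 10 cells, in the arterial smooth muscle cluster m2c, at 0.234 and 2.34 CPM. For fibroblasts against mural cells no member was called, where 3.21% of genes were called in either direction (Gli3 2.33 ± 0.82, adjusted p 0.170; Gli2 0.69 ± 0.91, adjusted p 1; edgeR's quasi-likelihood test). For Gli3 the same contrast had an adjusted p of 0.0238 without the low-count filter and 0.0192 by DESeq2.

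Gli1, the transcription factor whose level follows the activity of the pathway, was counted in mesenchymal and in immune cells. In the mesenchymal pools it stood at 19 CPM in 108 of 998 male cells and at 19.3 CPM in 82 of 339 female cells, with at least 20 counts in 41 and 18 of them. The log2 fold change was 5.66 ± 0.67 with an adjusted p of 0.00156 by edgeR's quasi-likelihood test (4.83 in the female and 6.10 in the male pools alone). In the immune pools it stood at 5.48 CPM in 64 of 255 male cells and at 11.4 CPM in 225 of 396 female cells, but only 5 cells held 20 counts or more. The immune log2 fold change was 4.15 ± 0.66 with an adjusted p of 0.00547 (4.02 in the female and 3.46 in the male pools alone). Immune cells thus held a Gli1 count more often than mesenchymal cells, at a few counts per cell.

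The immune Gli1 counts moved with those of Arhgap9, a neighbouring gene expressed in blood cells. The exons of Gli1 (chr10:127329882-127341974, minus strand, GENCODE vM21 on GRCm38) and Arhgap9 (chr10:127321964-127329943, plus strand) overlap by 62 bases at their ends, and Smart-seq2 reads do not mark the strand. Of the 289 immune cells with a Gli1 count, 288 also held an Arhgap9 count, among 459 immune cells with Arhgap9. Of the immune cells without an Arhgap9 count, 0 of 141 male and 1 of 51 female cells held Gli1, where 0 of 141 allows a share of up to 2.13%. Gli1 counts came to 3.82% of the Arhgap9 counts in the immune class. In the mesenchyme the ratio was the other way, with Arhgap9 counts at 3.01% of the Gli1 counts. There, cells without Arhgap9 held Gli1 as well, in 73 of 942 male and 59 of 312 female cells, with medians of 3 and 1 counts, against medians of 55 and 111 counts in the Gli1-positive cells that held both. Leaving out all cells with an Arhgap9 count left 25 Gli1 counts in 1 immune cell, so that a fit on the remaining cells was no test of the immune level. The mesenchymal cells left held 7.41 (male) and 1.88 CPM (female), against 0 and 2.39 CPM in the immune cells left, the female immune level coming from 1 cell. As the immune cells enter the mean that each other class is compared with, the Gli1 contrasts of that fit are given only as values: 6.64 in the mesenchymal, −6.71 in the endothelial and −3.83 in the epithelial class. The endothelial and epithelial calls of lower Gli1 were not made in it. Nor were they made on thinned cells (adjusted p 0.0643 and 0.0686, edgeR's quasi-likelihood test). Without the cells holding Arhgap9, Smo and Ptch1 were called higher in the mesenchyme (3.78, adjusted p 0.00229, and 2.27, adjusted p 0.0263) and lower in the immune class (−6.30, adjusted p 0.00216, and −3.04, adjusted p 0.0280). Smo was then also called higher in the epithelial class (2.55, adjusted p 0.0139). Of the 23238 genes tested in that fit, 2203 were called higher in the mesenchymal, 1018 lower in the immune and 1835 higher in the epithelial class. It kept only 141 male and 51 female immune cells, and with all cells neither Smo nor Ptch1 was called in any class.

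**Figure D3:**
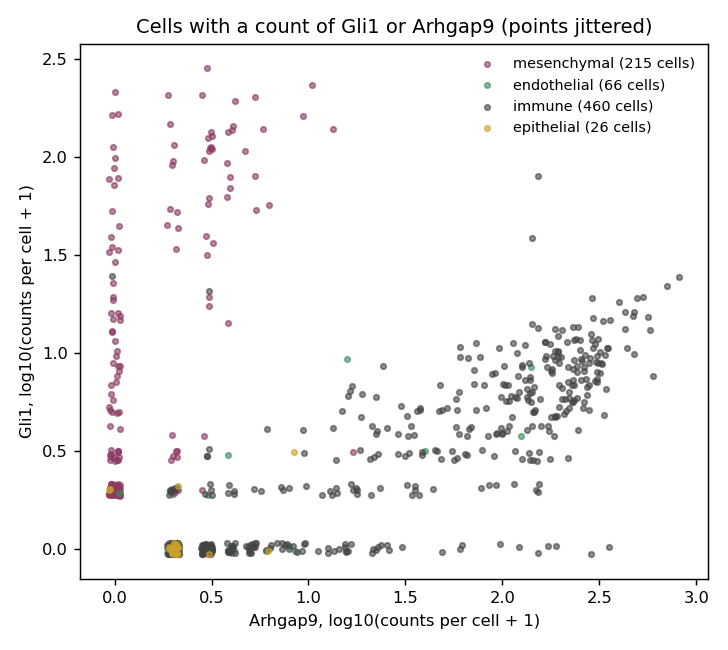
Counts of Gli1 against counts of Arhgap9, both as log10(counts per cell + 1), in the cells with a count of either gene, coloured by class and jittered slightly. Immune cells lie along the Arhgap9 axis with Gli1 at 3.82% of the Arhgap9 counts, and mesenchymal cells along the Gli1 axis with Arhgap9 at 3.01% of the Gli1 counts.

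Among mesenchymal clusters Gli1 was low in both kinds of stellate cell, and as low in m9c (0.795 CPM), m17c (0.828 CPM), m6c (0 of 26 cells) and m14c (1.19 CPM). HSC held 1.44 (male) and 1.68 CPM (female), in 4 of 72 cells, and cHSC held 0.212 and 0.832 CPM, in 7 of 113 cells, with no cell of either at 20 counts. The remaining mesenchymal cells held 22.3 and 20.5 CPM against 0.733 and 0.972 CPM in both stellate clusters summed. The stellate level was thus lower in both pools, and the share of all genes separated in this way was not counted. With clusters weighted equally the model gave no bounded error for this difference, and with one sum per side and pool it was −4.56 ± 1.06 with an adjusted p of 0.292 by edgeR's quasi-likelihood test. The other clusters with at least 20 cells and more than 20 CPM were m4c (42.7 CPM), m13c (29.9 CPM), m11c (27.6 CPM), m8c (27.6 CPM), m1c (25.8 CPM), m18c (22.4 CPM) and m2c (20.8 CPM). In m11c 213 of 408 counts were in 1 cell, and in m1c 232 of 613. The clusters were of fibroblasts apart from m8c and m2c, which are venous and arterial smooth muscle. In m2c Gli1 stood at 10.8 (male) and 27.2 CPM (female) and in m8c at 27.6 and 27.5 CPM, within the range of the fibroblasts. The fibroblast against mural difference was 0.82 ± 0.68 (adjusted p 0.866, edgeR's quasi-likelihood test).

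The Gli1 level of the peribiliary fibroblasts rested on 1 plate. The study names Gli1 for these cells from these data, so their values are a description. In m4 Gli1 stood at 46.7 (male) and 2.69 CPM (female), against 21.2 and 21.8 CPM in the other fibroblasts. The male pool was higher than the rest and the female pool lower. Of the 29 positive cells, 25 lay among the 54 cells of 1 male plate, where the level was 67.4 CPM, and over the other 44 cells it was 1.94 CPM.

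Hhip was a mesenchymal transcript. It stood at 34.7 (male) and 6.86 CPM (female) in the mesenchymal pools, and at no more than 0.136 CPM in any other pool. Counts were found in 133 of 1337 mesenchymal cells, 64 of them with at least 20 counts, against 3 of 1106 endothelial, 4 of 397 epithelial and 1 of 651 immune cells, none of which reached 20 counts. The median depth was 221194 counts in the mesenchymal and 230825 counts in the endothelial cells. The log2 fold change was 9.40 ± 1.36 with an adjusted p of 0.00358 by edgeR's quasi-likelihood test, and 7.22 in the female and 10.2 in the male pools alone.

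Within the mesenchyme the HSC held the highest Hhip level. The study names Hhip for HSC from these cells, so the values are given as a description. In cluster m7c it read 318 CPM over 68 male cells and 63.7 CPM over 4 female cells. Over both pools it was read in 37 of 72 cells (51.4%, interval 39.3 to 63.4%), 30 of them with at least 20 counts, and in 48.6% of the cells after each was thinned to 50000 counts. About as many HSC lacked an Hhip count as held one. The positive cells were not from a single plate. All 7 plates with at least 2 HSC had positive cells, at levels from 63.7 to 614 CPM, and the only plate without one held 1 HSC. Leaving out the highest cell gave 248 CPM and leaving out the plate with most HSC gave 307 CPM. The fitted log2 difference from the mean of the other mesenchymal clusters was 7.65 ± 0.99, and 4.30 ± 1.27 with one sum per side and pool.

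The cHSC lacked this Hhip level. Cluster m3c held 0.106 CPM over 91 male and 0.499 CPM over 22 female cells, and its 5 positive cells held 1 count each. Both pools were below both HSC pools, at a median depth of 197731 counts per cell against 198215 in HSC. The level in cHSC was close to that of the arterial smooth muscle cluster m2c (0.201 CPM), and in both clusters no cell held 20 counts. The fitted log2 difference of cHSC from HSC was −9.49 ± 2.72. No member, Hhip included, was called between the 2 stellate clusters, where 0.0478% of genes were called, 10 of 20913. Ptch1 stood at 40.6 CPM in cHSC and 74.8 CPM in HSC (−0.79 ± 1.84), Smo at 60.5 and 76.2 CPM (0.06 ± 1.5), and Gli3 at 76.3 and 49.5 CPM (−0.60 ± 2.0), each with an adjusted p of 1 by edgeR's quasi-likelihood test. The Gli3 difference changed sign between settings, and the errors of all 3 allowed differences of several fold in either direction. With both stellate clusters against the other mesenchymal clusters, where 3.49% of genes were called, no member was called (Gli3 2.58 ± 1.01, adjusted p 0.193).

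**Figure D4:**
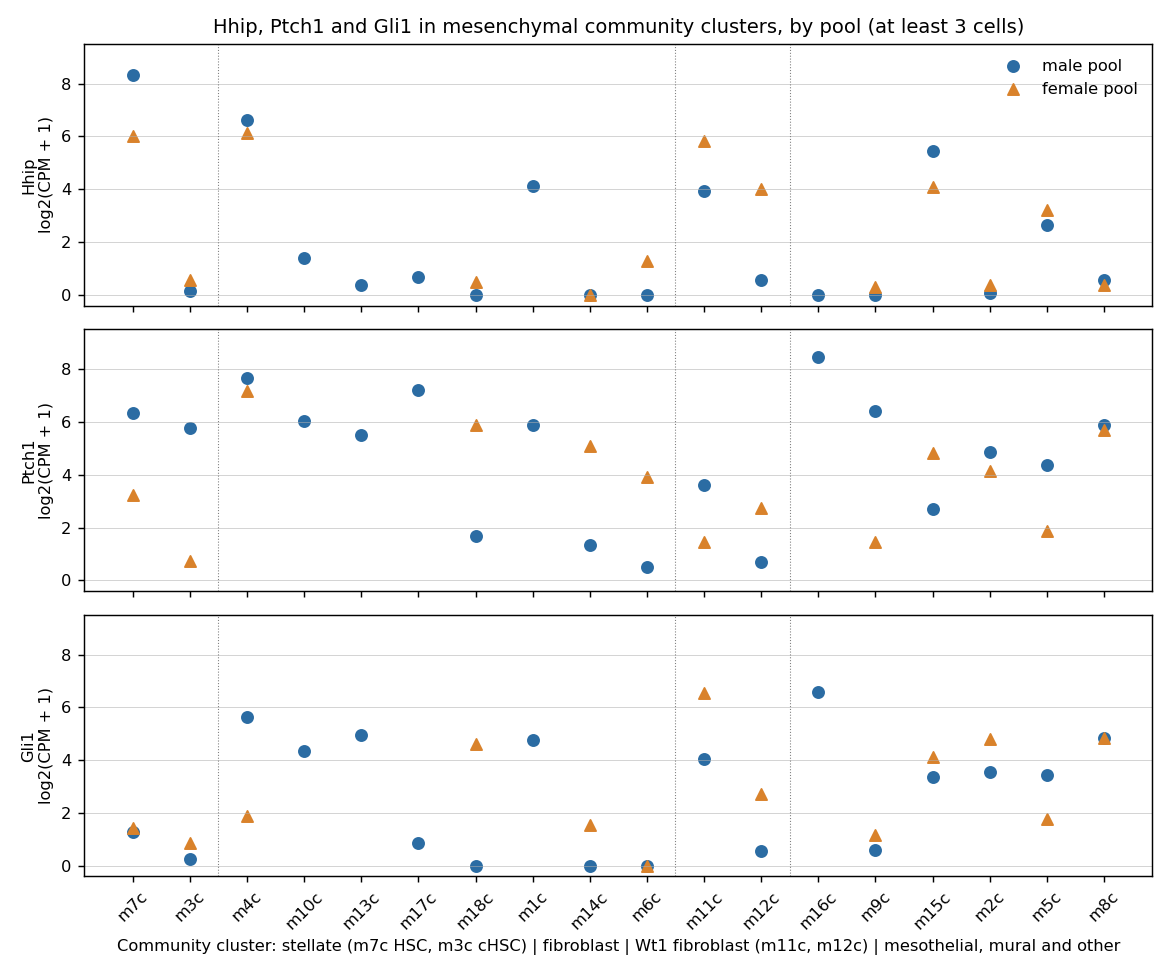
Hhip, Ptch1 and Gli1 in the mesenchymal community clusters, as log2(CPM + 1) of the summed counts of the male (circle) and the female pool (triangle) with at least 3 cells. Hhip is high in m7c (318 and 63.7 CPM) and m4c (97.1 and 69.0 CPM) and near 0 in m3c, whereas Gli1 does not exceed 1.68 CPM in either stellate cluster.

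Below the HSC the order of Hhip was the m4c fibroblasts at 93.7 CPM, then the Wt1+ fibroblast cluster m11c at 20.7 CPM, cluster m15c of the cells annotated as elaSMC at 20.7 CPM, m1c at 16.4 CPM, m12c at 8.97 CPM and m5c at 6.27 CPM. All other mesenchymal clusters were at or below 1.61 CPM. Of the neighbours in this order, m4c and m11c were separated by their pools, and HSC and m4c were not. The m4c pools stood at 97.1 and 69.0 CPM, so that the female HSC value of 63.7 CPM lay below both, and the m11c pools at 14.1 and 56.5 CPM, spanning m15c and m1c. The m1c value came from 2 of 67 cells. The clusters differed in how many cells carried the level, with at least 20 counts in 22 of 95 m4c cells but 3 of 53 in m11c and 3 of 33 in m15c.

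The peribiliary fibroblasts were the other population with many Hhip-positive cells. In m4 Hhip stood at 96.4 (male) and 69.0 CPM (female), in 31 of 98 cells (31.6%, interval 22.6 to 41.8%), 23 of them with at least 20 counts. The other fibroblasts held 5.28 and 5.83 CPM in the same pools, so that both m4 pools were higher. How many of all genes had pools separated in this way was not counted. The log2 fold change was 4.81 ± 1.18 with an adjusted p of 0.239 by edgeR's quasi-likelihood test, in a comparison where 0.0626% of genes were called. The same test had an adjusted p of 0.0148 without the low-count filter and 0.0435 on cells thinned to 50000 counts, the DESeq2 Wald test one of 8.63e-04, and one sum per side and pool one of 0.524 at a change of 3.96, so the call depended on the setting. Without the plate with most of these cells Hhip was at 63.5 CPM. None of the other members passed in m4 (Ptch1 1.79 ± 1.01, adjusted p 0.948; Smo 0.60 ± 0.71, Gli3 0.46 ± 1.24 and Gli2 −2.25 ± 1.69, each with an adjusted p of 1).

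In the capsular Wt1+ fibroblasts, m11c and m12c together, the Hhip comparison turned on the m4c cells among the other fibroblasts. The male pool held 9.54 CPM against 26.1 CPM in the remaining fibroblasts, and the female pool 23.6 against 6.31 CPM. Of the Hhip counts of the remaining fibroblasts, 2381 of 2814 (male) and 231 of 245 (female) were in m4c. Without m4c, an alternative chosen after seeing the data, the remaining fibroblasts held 5.21 (male) and 0.394 CPM (female), below the Wt1+ level in both pools. As m4c held most of these counts, leaving it out had to lower the rest, so these values are a description and no test. With m4c kept, the direction differed between the pools. The fitted difference with m4c kept, 4.10 ± 1.15, had an adjusted p of 0.0605 by edgeR's quasi-likelihood test, where 1.49% of genes were called in either direction. It was 0.04 with one sum per side and pool. The DESeq2 Wald test gave 3.66 and an adjusted p of 0.00287. Fibroblasts as a whole held 23.6 (male) and 9.99 CPM (female) against 2.68 and 3.48 CPM in mural cells, a difference of 1.69 ± 0.77 with an adjusted p of 0.374. The fibroblast pools were both higher, and m4 alone held 2689 of the Hhip counts.

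**Figure D5:**
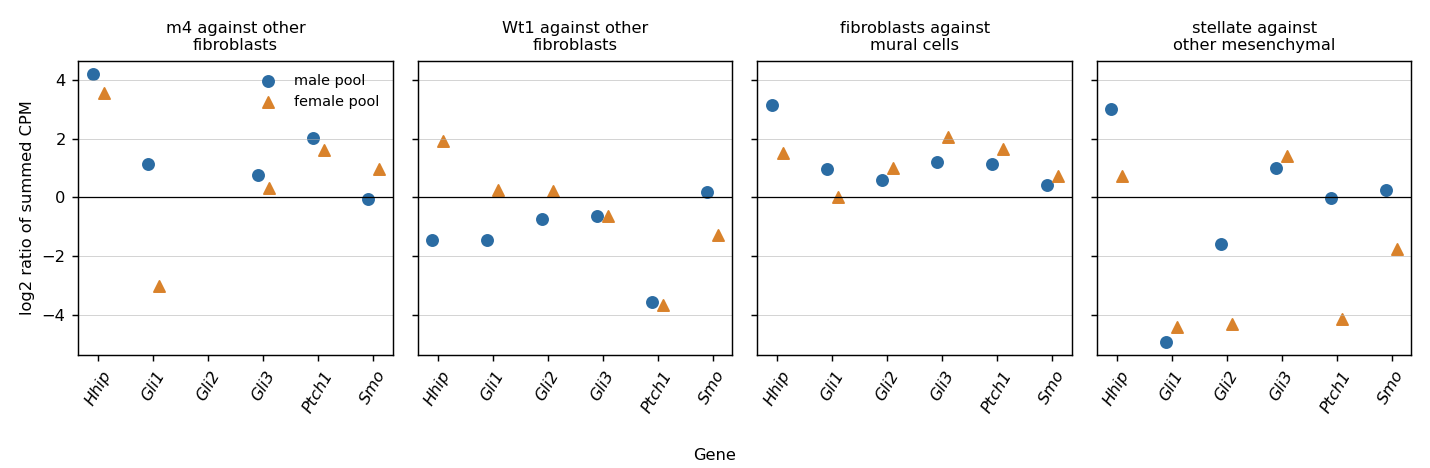
Log2 ratio of the summed CPM of a group of clusters to that of the rest, for 6 members and for the male (circle) and the female pool (triangle) in each comparison. Gli2 in m4 is left out because the female sum was under 3 counts. In m4 the Ptch1 and Hhip ratios are above 0 in both pools and the Gli1 ratio is above 0 in the male pool only, and in the Wt1+ fibroblasts the Ptch1 ratio is below 0 in both pools (−3.55 and −3.67).

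Divided by exonic length, which makes levels of different genes comparable, Hhip was also the highest member in HSC. There it stood at 32.8 CPM per kilobase, against 13.5 for Smo, 5.28 for Ptch1, 5.16 for Gli3, 0.292 for Gli1 and 0.0483 for Gli2. In the peribiliary fibroblasts the levels over both pools were nearer each other, at 14 CPM per kilobase for Smo, 13.6 for Ptch1, 10.3 for Hhip, 8.33 for Gli1, 6.17 for Gli3 and 2.50 for Gli2. The Gli1 value rested on 1 plate, without which Gli1 fell from 41.6 to 1.94 CPM before division by length. In the female m4 pool Smo stood at 165 CPM and Gli1 at 2.69 CPM, so that the levels lay far apart there. The antagonist thus stood above the receptor in HSC and below it in m4, per length. In the e1 endothelium Dhh stood at 16.4 CPM per kilobase, and in cholangiocytes Smo stood at 12.7.

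The pathway targets Hhip, Ptch1 and Gli1 were read together in few HSC. Of the 37 HSC with Hhip counts, 4 held Gli1, which were all the Gli1-positive HSC, and 11 held Ptch1. In the peribiliary fibroblasts 12 of 31 Hhip-positive cells held Gli1 and 22 held Ptch1. Hhip was read in 42.3% of the Ptch1-positive and 19.6% of the Ptch1-negative m4 cells, and Gli1 in 40.4% and 17.4%. On the plate with most m4 cells Hhip was read in 22, Ptch1 in 36 and Gli1 in 25 of 54 cells. On the other plates they were read in 9, 16 and 4 of 44 cells. The m4 shares pool all plates, and the part of the plate in them was not tested. In HSC Hhip was read in 61.1% of the Ptch1-positive and 48.1% of the Ptch1-negative cells. These shares are of cells within pools, include cells with a single count, and were not tested.

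The gene whose levels were most like those of Hhip over 48 community clusters of all classes was Vcan, a matrix proteoglycan, with a Pearson correlation of 0.83 of log2(CPM + 1), followed by Dchs2 (0.78), Fgf7 (0.74), Gm16503 (0.71) and Wnt6 (0.71), among 19387 genes. The clusters share plates and pools, and most were near 0 for Hhip. With the other members the correlation was 0.60 for Gli3, 0.42 for Smo, 0.41 for Gli2, 0.34 for Gli1 and 0.29 for Ptch1. For Gli1 the most similar genes were Epb41l3 (0.75), Rab7b (0.72), Pla2g15 (0.72), Sh3bp1 (0.70) and Map3k5 (0.70), of which Pla2g15 and Sh3bp1 were highest in immune clusters, where Gli1 counts moved with Arhgap9.

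A further 33 genes of the pathway were chosen by their known role, with earlier results of these data known. The list held a group of targets in mesenchyme, so that its share of calls in that class was partly set by the choice. In the mesenchymal class 12 of the 32 tested were called higher and 2 lower, beside 9.47% and 2.33% of all genes, and their median log2 fold change was 2.51 against 0.02 over all genes tested. The called genes included the co-receptors Gas1 (7.62) and Boc (7.68), the glypican Gpc3 (8.04), the ligand release factors Scube1 (6.71) and Scube2 (5.23), and the mesenchymal targets Foxf1 (7.79), Foxl1 (5.77) and Osr1 (6.22). The 2 lower genes, Grk2 (−1.88) and Ccnd1 (−1.62), are named after their values were seen. In the endothelial class Bmp4 (4.19) was called higher and Gpc3 (−6.94) lower, beside 5.33% and 2.96% of all genes. In the immune class Grk2 (3.61) was higher and Evc (−8.20), Evc2 (−5.50), Bmp4 (−4.39) and Cdon (−3.76) were lower, beside 7.92% and 5.25%. In the epithelial class 4 were higher, with Scube3 (5.87) first, and 3 lower, with Foxl1 (−5.47) first, beside 8.37% and 4.05%. In HSC 4 of 31 were called higher (all genes 5.95%), Stk36 (4.62), Mycn (4.46), the ligand release protein Disp1 (4.25) and Foxf1 (3.39), and Gpc3 (−2.68) was lower (all genes 0.215%). In fibroblasts against mural cells Cdon (3.81), Bmp4 (2.19) and Gas1 (1.75) were higher and Ccnd2 (−1.19) was lower, of 32 tested (all genes 3.21% in either direction). In the Wt1+ fibroblasts Osr1 (5.18) and Gpc3 (2.42) were higher, of 31 tested (1.49%), the study having named Osr1 for them from these cells. In the peribiliary fibroblasts none of 32 was called, and between cHSC and HSC none of 31. In cholangiocytes against hepatocytes 9 of 22 were called higher (12.3% of all genes) and none lower, the largest being Stk36 (10.5), Scube3 (7.85), Evc (6.25), the cilium motor gene Kif3a (6.21), Hhat (4.84), Ccnd2 (4.65), Ccnd1 (4.55) and Tulp3 (4.46). In e1 Bmp4 (5.38) was called higher, 1 of 26 (1.32%), the study having named Bmp4 for central vein endothelium from these cells. In e2 Mycn (7.29) and Boc (5.87) were called higher, 2 of 26 (1.93% in either direction). All values are log2 fold changes, and all calls are by edgeR's quasi-likelihood test.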

How the data were processed

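Cells of 4 classes (mesenchymal, endothelial, immune, epithelial) were sorted and sequenced by Smart-seq2. The authors aligned the reads to GRCm38 and counted them per gene, and the deposited table holds raw counts of reads, not molecules. According to the submitters' processing notes Bowtie2, Subread and featureCounts, Seurat and bcl2fastq were used. Whether counting used strand is likewise not given. The 92 spike-in rows were removed, which left 46517 genes. Classes, annotations and clusters were taken from the deposited cell tables.

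Counts were summed per class or cluster and per pool (sums of at least 3 cells) and tested with edgeR 4.0.16 in R 4.3.3 (quasi-likelihood test, TMM, filterByExpr, Benjamini-Hochberg over all genes tested), called at an adjusted p under 0.05 and an absolute log2 fold change of at least 1. Levels are CPM of the summed counts. Python 3.11.15 with pandas 2.3.3 and scipy 1.17.1 was used for the levels and exact binomial intervals, at a confidence level of 95%. Intervals, and limits for a count of 0 (3 counts), cover counting error only, since reads without molecular identifiers are not independent. The class and m7c fits were also run on simulated counts. Those counts had the same spread for every gene and no plate effects, so they do not cover calls that rest on single cells or plates. Between pools, p-values measure the spread between a male and a female pool, not between known animals. Within a class, clusters of a pool come from the same cells' sorts, so the pool pairs them, and the fit with the pool as a replicate block was run as an alternative.

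The 8 members and the gene lists were chosen with earlier results of these data known. Named genes were the 8 members in every comparison, up to 8 other pathway genes with the largest change among those called, and the 5 genes most like Hhip and Gli1. Alternatives were no filter, minimums of 5 and 10 cells per sum, cells thinned to 50000 counts, sums per plate, DESeq2 1.42.0, the replicate block and leaving out a pool, and, chosen after seeing the data, one sum per side and pool, leaving out cells with Arhgap9 counts, leaving out the HSC with most Dhh counts, and leaving m4c out of the other fibroblasts.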

Additional observations from a re-analysis of the deposited data

Results flagged for a closer look

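Hhip moved in opposite directions in the male and the female pool of the Wt1+ fibroblasts against the other fibroblasts. The male pools stood at 9.54 against 26.1 CPM and the female pools at 23.6 against 6.31 CPM, and the male log2 ratio minus the female one was −3.36. Of the counts of the other fibroblasts 2381 of 2814 (male) were in m4c, and without m4c they held 5.21 (male) and 0.394 CPM (female), below the Wt1+ cells in both pools. Leaving out the cluster with most of the counts had to lower the rest, so this is a description only. Gli1 did so in the peribiliary fibroblasts, at 46.7 against 21.2 CPM in the male pools and 2.69 against 21.8 CPM in the female pools, with a difference of log2 ratios of 4.16. The female peribiliary pool held 9 cells, and 25 of the 29 Gli1-positive cells were on 1 male plate. Neither difference between the pools was tested, since each sex had 1 pool.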

How the results depend on the processing

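Over all genes, the calls depended on the setting. Summed over the 4 classes, 10984 calls became 19544 without the low-count filter and 20125 by DESeq2. For both stellate clusters 730 became 475 with sums of at least 5 cells, 1494 with sums per plate and 0 with one sum per side and pool (2247 genes had an unadjusted p under 0.05 there). For HSC 1290 became 851 with the replicate block, 660 and 680 with sums of at least 5 and 10 cells, 695 on thinned cells and 35 with one sum per side and pool. Of the 1290 calls 1245 were higher and 45 lower, and of the 35 calls 22 were higher and 13 lower. For cHSC against HSC 10 became 28 without the filter, 5 with at least 5 cells, 23 on thinned cells, 74 per plate and 172 by DESeq2. For the Wt1+ fibroblasts 312 became 203 with the block, 698 by DESeq2 and 0 with one sum per side and pool (1473 unadjusted). For fibroblasts against mural cells 719 became 1109 without the filter, 393 per plate, 1766 by DESeq2 and 0 with one sum per side and pool (2309 unadjusted). For m4 14 became 218 without the filter, 0 with at least 10 cells, 36 on thinned cells, 3 per plate, 377 by DESeq2 and 0 with one sum per side and pool (1266 unadjusted). For cholangiocytes 2833 became 635 with the block, 1393 per plate and 492 without replicate 2. For e1 258 became 998 without the filter, 644 per plate and 1 with one sum per side and pool, and for e2 354 became 1102, 865 and 21, and 211 with the block. Gli3 between cHSC and HSC reversed to 0.60 and 0.53 with at least 5 and 10 cells, 0.40 on thinned cells and 0.095 per plate. Gli1 in m4 reversed to −0.055 on thinned cells and −0.43 per plate, and Dhh in e2 to −0.24 with one sum per side and pool. The block changed the call of 1 member, Smo in cholangiocytes (6.85 in the edgeR quasi-likelihood fit, adjusted p 0.0855). Between classes the male pools' deviations correlated at 0.0963 to 0.166 over 22883 genes, so the pool numbers were not taken to pair the samples. Of the mesenchymal calls 80.2% were higher in edgeR's test and 63.2% by DESeq2. Sums per plate moved that share from 64.3% to 51.8% for the endothelial and from 67.4% to 48.0% for the epithelial class. The cause of these changes was not tested.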
